A study of Mus musculus with 2 samples.

Results

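Keratins are the intermediate filament proteins of epithelial cells, and p63 is a transcription factor of basal cells. The 7 genes described here are the keratin genes Krt5, Krt14, Krt15, Krt17, Krt8 and Krt18 and Trp63, the gene of p63. They were picked by symbol from 31053 gene features, where each occurs once, and the other 47 features with a keratin symbol served for comparison. Their transcripts were followed cell by cell in the basal, supporting and gland cells of mouse olfactory epithelium.

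The cells came from a male C57BL/6 mouse that underwent unilateral naris occlusion on postnatal day 14 and was sampled on postnatal day 28. The groups are the closed (left) side and the open (right) side, each with 1 library made by the Chromium 3′ v3 method from frozen, dissociated cells after removal of dead cells. Both sides belong to the operated animal, and no unoperated animal is among the samples. The barcodes end in 2 or 1, and which ending belongs to which side is not recorded, so the text speaks of library 2 and library 1, assigns neither to a side, and gives ratios as library 2 over library 1. Without replicates there is no test between the libraries, and all intervals are exact 95% intervals that cover counting error only.

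Library 2 held 7990 barcodes and 49221001 UMIs (unique molecular identifiers, each standing for 1 captured transcript), and library 1 held 4501 barcodes and 27212821 UMIs. After filtering, 5266 cells of library 2 and 3032 cells of library 1 remained, with a median of 5139.5 UMIs per cell in library 2 and 5528 in library 1. Only 12 barcode sequences occurred in both libraries, 6 of them among the kept cells of both. Cells were clustered without any keratin gene and without Trp63, so the 7 genes set neither the borders nor the names of the classes. Named classes carry "-like" because they rest on transcripts of preset markers, and 5 of 31 clusters stayed unnamed.

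Horizontal basal cells (HBCs) are the flat, resting stem cells attached to the basal lamina of the olfactory epithelium, and in mouse they are recognised by keratins 5 and 14 and by p63, which holds them in their resting state. Globose basal cells (GBCs) above them divide and give rise to neurons, sustentacular cells span the height of the epithelium as support, and Bowman's glands secrete mucus through it. Keratin filaments assemble from pairs of a type II chain (keratins 5 and 8) and a type I chain (keratins 14, 15, 17 and 18). Keratin 5 typically pairs with keratin 14 in basal cells of layered epithelia, and keratin 8 with keratin 18 in simple, single-layered epithelia.

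In GRCm38, the mm10 build, with GENCODE M21 gene models, the type II genes Krt5 (chr15:101707070-101712898, minus strand) and Krt8 (chr15:101996698-102004482, minus strand) lie on chromosome 15. Krt18 (chr15:102028180-102032027, plus strand) is the one type I gene of the 7 that lies there too. Krt14 (chr11:100203162-100207548), Krt15 (chr11:100131758-100135928) and Krt17 (chr11:100256217-100261029) lie together on the minus strand of chromosome 11, and Trp63 (chr16:25683763-25892102) lies on the plus strand of chromosome 16. All are protein-coding. RefSeq promoter windows were at hand for 4 of the 7 genes. Those of the pair Krt8 and Krt18, whose levels ran together over the clusters, are printed beside that of the basal gene Krt5, to show which short elements they share. Each runs 5′ to 3′ on the gene's own strand from 250 bases before to 50 bases after the RefSeq start (GRCm38.p6), at chr15:102004293-102004592 for Krt8, chr15:102027966-102028265 for Krt18 and chr15:101712856-101713155 for Krt5. Capitals mark matches on either strand to 4 motifs. The TATA box was searched as TATAAA. The GC box, a site of Sp1-type factors, was searched as GGGCGG. Sites of AP-2 and of AP-1 factors were searched as GCCNNNGGC for AP-2 and, with the letters TGANTCA, for AP-1.

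Krt8: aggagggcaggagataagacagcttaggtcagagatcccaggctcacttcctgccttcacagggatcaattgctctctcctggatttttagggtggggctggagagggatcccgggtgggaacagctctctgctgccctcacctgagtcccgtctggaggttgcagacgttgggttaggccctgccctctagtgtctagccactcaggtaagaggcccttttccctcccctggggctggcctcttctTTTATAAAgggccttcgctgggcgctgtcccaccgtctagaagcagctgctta
Krt18: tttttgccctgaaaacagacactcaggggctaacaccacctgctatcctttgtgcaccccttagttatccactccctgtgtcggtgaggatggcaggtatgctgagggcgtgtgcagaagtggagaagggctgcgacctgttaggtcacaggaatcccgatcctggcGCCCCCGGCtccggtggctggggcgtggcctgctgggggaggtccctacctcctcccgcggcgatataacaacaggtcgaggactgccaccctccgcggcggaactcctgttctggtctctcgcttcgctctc
Krt5: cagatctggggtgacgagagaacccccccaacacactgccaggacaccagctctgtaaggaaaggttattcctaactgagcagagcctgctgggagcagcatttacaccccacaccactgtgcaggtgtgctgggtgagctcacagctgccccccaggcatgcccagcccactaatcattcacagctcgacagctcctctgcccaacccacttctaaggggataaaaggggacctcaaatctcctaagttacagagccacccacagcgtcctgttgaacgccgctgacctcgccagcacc

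The Krt8 window held TATAAA on both strands, overlapping, at 1 and 3 bases before the RefSeq start, and that start lies 140 bases downstream of the GENCODE start. The Krt18 window held GCCNNNGGC at 83 bases before its start, and the Krt5 window held none of the 4 motifs. Of 32851 promoter windows of this length, 13.6% held the TATA box letters, 16.6% those of AP-2, 35.7% those of the GC box and 7.81% those of AP-1. The 2 windows of the co-occurring pair thus shared none of these letters, which describes the windows and not the binding of a factor. The RefSeq start listed for Krt14 lies 1518 bases downstream of the GENCODE start, so its window falls inside the gene and is not shown.

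Trp63 transcripts were concentrated in HBC-like cells, which held 87.9% of the 2473 Trp63 UMIs of all kept cells. The HBC-like class had 784 cells, 459 in library 2 and 325 in library 1, with a median of 4149 UMIs, and 11 of its 12 preset markers, none of them a keratin, reached 10 CPM (a gene's UMIs per 1000000 UMIs summed over the cells of a class). Trp63 stood at 536 CPM (507 to 566) in library 2 and 524 CPM (490 to 559) in library 1. The intervals overlapped, and the next class by level, the ciliated-like cells with 28 UMIs, was at 35.4 CPM (23.5 to 51.2). In sustentacular-like cells Trp63 was at 1.34 CPM, in Bowman gland-like cells at 1.29 CPM and in GBC-like cells at 4.94 CPM. These levels were close to the 3.98 CPM of mature olfactory sensory neuron (OSN)-like cells, which served as a class that should lack the gene. The 3′ counts do not separate the isoforms of p63.

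To compare shares of cells at equal depth, each cell was thinned at random to 2000 UMIs, and shallower cells were left out. Of these, 59 were HBC-like, 45 sustentacular-like and 20 Bowman gland-like. Of the 536 B lineage-like cells 398 were left out, so thinned shares of that class rest on its 138 deeper cells. After thinning, 449 of 725 HBC-like cells (61.9%, 58.3 to 65.5%) had at least 1 Trp63 UMI. No sustentacular-like cell did, 0 of 876, which at this depth allows a share of cells with a UMI of up to 0.342%, taken as 3 cells of the total (exact upper bound 0.42%). With all UMIs kept, 5 of 921 (0.543%) had one. In GBC-like cells the share was 2 of 470 (0.426%), no higher than the 8 of 1104 (0.725%) of mature OSN-like cells. Before thinning, 81.1% of HBC-like cells had a Trp63 UMI.

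Krt5, the type II keratin of basal cells, and Krt14, its usual type I partner, marked the same class. Krt5 stood in HBC-like cells at 938 CPM (900 to 978) in library 2 and 854 CPM (811 to 899) in library 1. Krt14 stood there at 1300 CPM (1254 to 1346) in library 2 and 1694 CPM (1633 to 1757) in library 1. Krt5 was thus slightly higher and Krt14 lower in library 2, with counting intervals that did not overlap for either gene, and how far 2 animals or 2 repeat libraries would differ is not known from these data. HBC-like cells held 90.7% of all Krt5 UMIs and 94.3% of all Krt14 UMIs. In sustentacular-like cells Krt5 was at 2.00 CPM (15 UMIs) and Krt14 at 2.27 CPM (17 UMIs), and in Bowman gland-like cells Krt5 was at 1.47 CPM and Krt14 at 1.11 CPM. Krt14 shares 14.4% of its transcript's 50-base stretches with other genes, mostly Krt16, and 9.53% of those in its last 500 bases with another gene, so a small part of its reads could be assigned to more than 1 gene or lost.

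At 2000 UMIs per cell, Krt5 was seen in 79.7% and Krt14 in 84.8% of HBC-like cells, and both in the same cell in 499 of 725 (68.8%, 65.3 to 72.2%). The share with both was 70.1% (65.5 to 74.5%) in library 2 and 67.0% (61.4 to 72.3%) in library 1. The libraries overlapped, and outside the HBC-like class only 12 of 6694 cells carried both genes. The share follows the depth. It was 83.7% with all UMIs kept and 37.8% when 2 UMIs of each gene were asked for, so a cell without a UMI is not shown to lack the gene. Krt5 and Trp63 were seen together in 382 HBC-like cells (52.7%, 49.0 to 56.4%), against no sustentacular-like or GBC-like cell and 1 of 333 Bowman gland-like cells.

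The share of HBC-like cells with Krt5 was higher in cells with more Trp63 UMIs. Krt5 was seen in 71.0% of the 276 cells without a Trp63 UMI, in 81.5% of the 211 cells with 1, in 86.7% of the 135 cells with 2 and in 90.3% of the 103 cells with 3 or more. The lowest and the highest of these shares do not overlap in their intervals (65.3 to 76.3% and 82.9 to 95.3%). Depth before thinning ran the other way, with a median of 5249.5 UMIs in the cells without Trp63 and 3313 in those with 3 or more, and the part of depth or of cluster in this gradient was not tested. The cells are not replicates, and no p-value was attached.

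Krt17, a type I keratin known from activated and basal epithelial cells, had the highest level of the 7 genes in HBC-like cells. It stood at 1638 CPM (1587 to 1690) in library 2 and 2096 CPM (2028 to 2165) in library 1, lower in library 2 as was Krt14. A 3′ UMI counts a transcript once whatever its length, so these levels can be set beside each other. HBC-like cells held 93.7% of all Krt17 UMIs, 86.9% of them showed Krt17 after thinning, and Krt5 and Krt17 met in 506 of 725 (69.8%, 66.3 to 73.1%). All of Krt5, Krt14, Krt17 and Trp63 were seen in 298 cells (41.1%, 37.5 to 44.8%), against none of 876 sustentacular-like cells. The last 500 bases of Krt17 share 9.53% of their 50-base stretches with other genes, chiefly Krt14, so reads of this stretch cannot be told apart between them. Bowman gland-like cells had Krt17 at 3.63 CPM (13 UMIs) in library 2 and 23.3 CPM (43 UMIs) in library 1, and only 7 cells of library 1 carried those 43 UMIs.

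**Figure D1:**
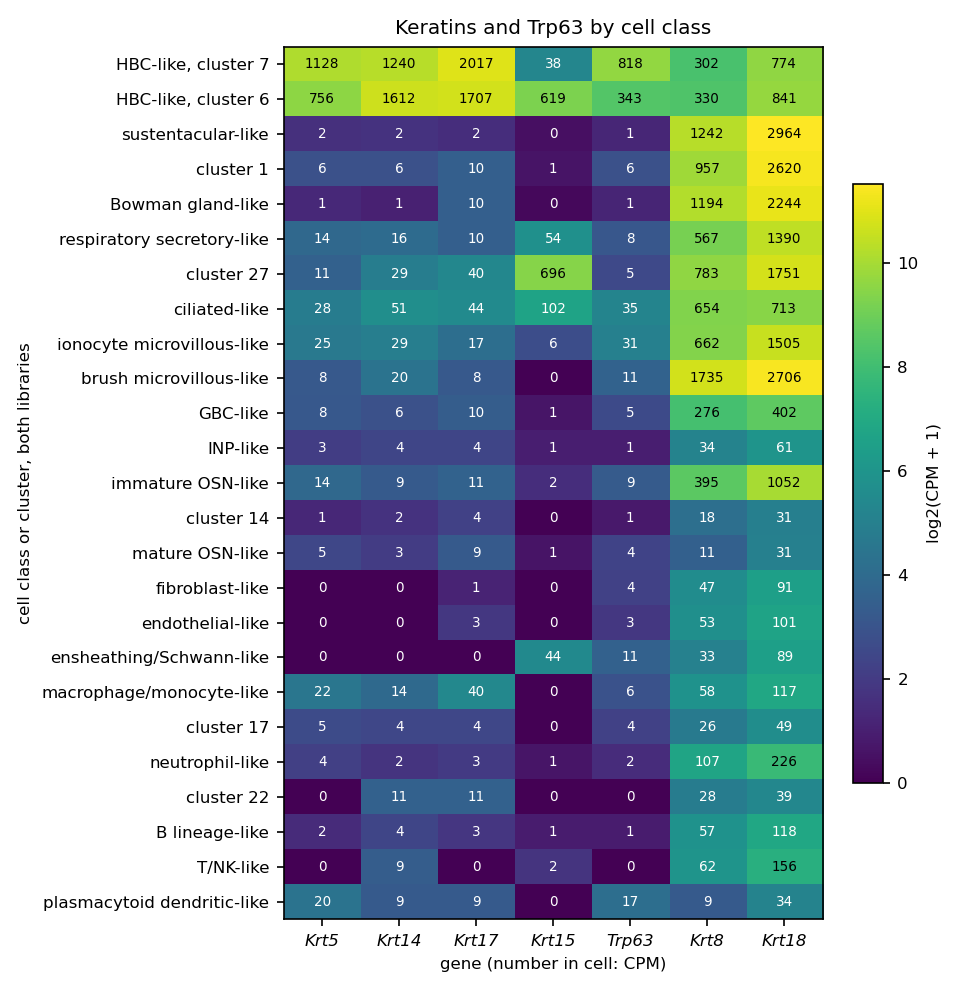
Levels of the 7 genes by cell class, as a heat map of log2(CPM + 1) over both libraries together, with the CPM printed in each cell. Krt5, Krt14, Krt17 and Trp63 are highest in the HBC-like rows, clusters 7 and 6, and Krt15 also in cluster 27. Krt8 and Krt18 peak in the sustentacular-like, gland-like, brush microvillous-like and cluster 1 rows.

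Krt15, a type I keratin linked to slowly cycling basal cells in skin and oesophagus of mouse, had a pattern of its own. It reached 416 CPM (391 to 443) in library 2 and 354 CPM (326 to 383) in library 1 in HBC-like cells, which held 69.4% of its UMIs. A further 19.0% lay in the 63 cells of cluster 27, an unnamed cluster led by Reg3g, AW112010 and Kcnj16, where Krt15 stood at 550 CPM (472 to 636) in library 2 and 853 CPM (752 to 964) in library 1. Respiratory secretory-like cells held 5.47% and ciliated-like cells 3.52% of the Krt15 UMIs. The HBC-like level depended on the cells kept and on the clustering. It was 761.6 CPM over both libraries at a limit of 5% mitochondrial UMIs and 236 CPM at Leiden resolution 2.0, against 390.0 CPM as reported. Resolution 2.0 used the same kept cells but put 710 in the HBC-like class, against 784. An unnamed cluster of 139 cells there, led by Ly6a, Reg3g and Gsto1, had HBC as its best class. Krt15 had few UMIs in sustentacular-like cells (3 UMIs, 0.401 CPM), GBC-like cells (3 UMIs) and Bowman gland-like cells (1 UMI).

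In cluster 27 Krt15 was seen with little of the basal set. After thinning, 24 of its 62 cells (38.7%, 26.6 to 51.9%) had Krt15, 3 had Krt5 (4.84%) and 3 had Krt17, while Krt14 and Trp63 were seen in 0 of 62 in this draw. With all UMIs kept, 33 of its 63 cells had Krt15 (52.4%), 7 had Krt14 (11.1%, 4.59 to 21.6%), 6 had Krt5 (9.52%), 11 had Krt17 (17.5%) and 2 had Trp63 (3.17%), and 6 had Krt15 and Krt14 together. Of the thinned cells, 82.3% had Krt8 and 96.8% had Krt18. Krt19, a type I keratin that lacks the tail of the others, stood there at 1190 CPM (1106 to 1278), its highest level in any cluster. Only 18 of the 62 cells (29.0%) had Krt15 and Krt8 together in this draw. The cluster is small, with 35 cells of library 2 and 28 of library 1.

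Krt8, the type II keratin of simple epithelia, and Krt18, its type I partner, were highest in the supporting, gland and microvillous cells. Krt8 stood at 1159 CPM (1128 to 1191) in library 2 and 1368 CPM (1326 to 1410) in library 1 in the 921 sustentacular-like cells. Krt18 stood there at 2687 CPM (2639 to 2735) in library 2 and 3384 CPM (3318 to 3450) in library 1. Both were lower in library 2, with counting intervals that did not overlap. In order of level, Krt8 over both libraries ran from brush microvillous-like cells (1735 CPM, 1601 to 1878) through sustentacular-like cells (1242 CPM, 1217 to 1267), Bowman gland-like cells (1194 CPM, 1165 to 1224) and cluster 1 (957 CPM, 935 to 979), a large unnamed cluster led by Cyp4b1 and Gstm1. The sustentacular-like and Bowman gland-like intervals overlap narrowly. Cluster 27 (783 CPM), ionocyte microvillous-like (662 CPM), ciliated-like (654 CPM) and respiratory secretory-like cells (567 CPM) followed, and the ionocyte-like and ciliated-like intervals overlap.

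Krt18 kept nearly the same order, with sustentacular-like cells (2964 CPM), brush microvillous-like cells (2706 CPM), cluster 1 (2620 CPM), Bowman gland-like cells (2244 CPM) and cluster 27 (1751 CPM) first. At the lower end, mature OSN-like cells had Krt8 at 10.7 CPM (8.23 to 13.8) and Krt18 at 31.3 CPM (26.9 to 36.3). The immature OSN-like class was uneven. Its cluster 9, with a median of 14173 UMIs per cell, had Krt8 at 580 CPM, whereas its cluster 3, with a median of 4870, had it at 13.5 CPM. Cluster 9 counts Insl6 and Edn2 among its 10 leading genes, which are also among those of cluster 1, and whether it holds doublets was not tested.

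The Krt8 and Krt18 pair was the rule in single supporting cells. After thinning, 778 of 876 sustentacular-like cells had both (88.8%, 86.5 to 90.8%), 85.8% (82.3 to 88.8%) in library 2 and 92.6% (89.5 to 94.98%) in library 1. Of the Bowman gland-like cells 241 of 333 had both (72.4%, 67.2 to 77.1%), 68.6% (61.8 to 74.9%) in library 2 and 78.3% (70.2 to 85.1%) in library 1. Sustentacular-like cells differed between the libraries beyond counting error, and the gland-like intervals overlapped. Cluster 1 had both in 83.3% and brush microvillous-like cells in 90.2% of cells, against 0.272% of mature OSN-like cells (median 5053 UMIs per cell before thinning) and 5.07% of B lineage-like cells (median 1521.5 UMIs), classes taken to lack these keratins, in which free RNA can give UMIs. The B lineage-like share rests on the 138 cells deep enough to thin, whereas the median given is that of all 536. The gland share fell to 40.4% with no filter on cells, where the class was rebuilt with 275 cells.

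The 353 Bowman gland-like cells were not uniform in this pair. Cluster 11, 274 cells, had Krt8 at 1642 CPM (1601 to 1684) and Krt18 at 2950 CPM (2895 to 3006). Cluster 29, 60 cells, had Krt8 at 308 CPM (278 to 341) and Krt18 at 959 CPM (905 to 1015), and cluster 30, 19 cells that are all of library 2, had Krt8 at 185 CPM (150 to 225). Cluster 11 thus had more Krt8 than sustentacular-like cells (1242 CPM) and about as much Krt18 (2964 CPM), and the other 2 clusters had less Krt8 than these. The median depth ran the other way, with 28968 UMIs per cell in cluster 30, 12176 in cluster 29 and 9711.5 in cluster 11, and CPM falls where other transcripts take a larger part of the total, so the levels are relative to what each cell makes.

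The ratio of Krt18 to Krt8 UMIs varied by class. It was 2.55 (2.39 to 2.72) in HBC-like cells, 2.39 (2.33 to 2.45) in sustentacular-like cells, 2.74 (2.67 to 2.81) in cluster 1 and 1.88 (1.82 to 1.94) in Bowman gland-like cells. GBC-like cells were at 1.46 (1.37 to 1.56), brush microvillous-like cells at 1.56 (1.41 to 1.73) and ciliated-like cells at 1.09 (0.967 to 1.23). Over both libraries together, the ciliated-like cells were thus the class in which the partners were nearest to equal. The libraries differed there, with 322 Krt18 and 236 Krt8 UMIs in library 2 against 242 and 281 in library 1. Over all keratin features, type I transcripts exceeded type II transcripts 3.66 times in HBC-like cells (5118 CPM against 1399 CPM) and 2.55 times in sustentacular-like cells (3194 CPM against 1253 CPM).

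HBC-like cells carried the simple-epithelium keratins beside the basal ones. Krt8 stood there at 318 CPM (295 to 341) in library 2 and 322 CPM (295 to 350) in library 1, and Krt18 at 744 CPM (709 to 779) in library 2 and 913 CPM (869 to 960) in library 1. Over both libraries Krt8 was at 319 CPM in HBC-like cells against 1242 CPM in sustentacular-like cells, a log2 ratio of -1.96, and Krt18 at 815 CPM against 2964 CPM, a log2 ratio of -1.86. At 2000 UMIs per cell 300 of 725 HBC-like cells had Krt8 (41.4%, 37.8 to 45.1%) and 533 had Krt18 (73.5%, 70.1 to 76.7%). In mature OSN-like cells Krt8 was seen in 1.63% and Krt18 in 5.25%. In the 138 of 536 B lineage-like cells deep enough to thin, Krt8 was seen in 7.97% and Krt18 in 11.6%.

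Krt5 and Krt8, the 2 type II chains, met in 244 of 725 HBC-like cells (33.7%, 30.2 to 37.2%), 34.6% (30.1 to 39.3%) in library 2 and 32.3% (27.1 to 37.9%) in library 1. In sustentacular-like cells 3 of 876 (0.342%) had both and in mature OSN-like cells 2 of 1104 (0.181%). The share was 56.2% with all UMIs kept and 5.79% when 2 UMIs of each were required, since Krt8 averaged 0.633 UMIs per thinned HBC-like cell. Taking Krt5 or Krt14 as basal and Krt8 or Krt18 as simple, 581 HBC-like cells (80.1%, 77.0 to 82.98%) had both kinds, 113 (15.6%) the basal kind only and 26 (3.59%) the simple kind only. Sustentacular-like cells had the simple kind only in 865 of 876 (98.7%) and both kinds in 8 (0.913%).

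**Figure D2:**
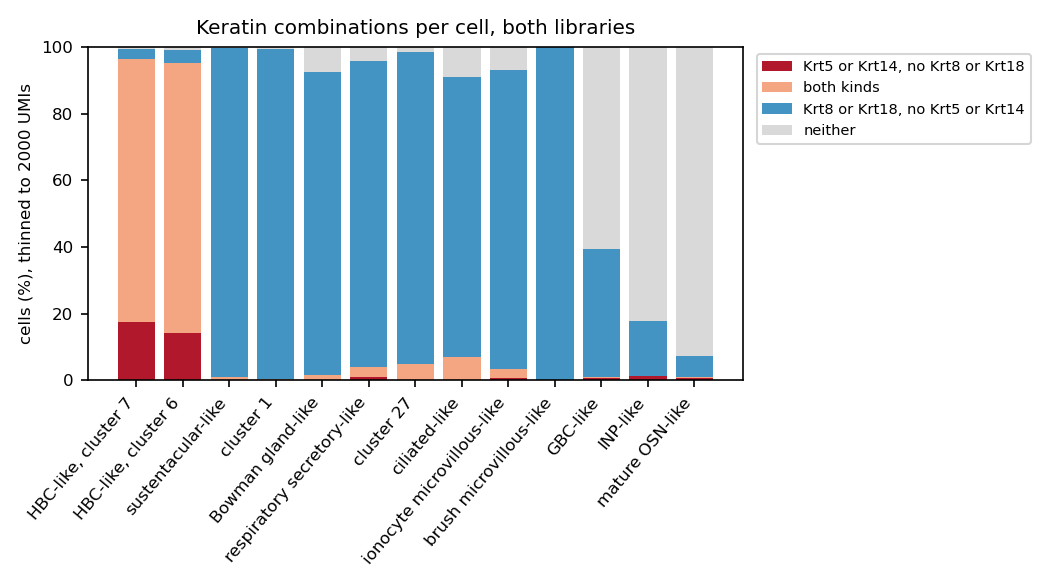
Share of cells, in percent, with basal keratins (Krt5 or Krt14) only, both kinds, simple-epithelium keratins (Krt8 or Krt18) only or neither, after thinning each cell to 2000 UMIs, by class. Both kinds make up 80.1% of the HBC-like cells, drawn as a bar each for clusters 7 and 6, and 0.913% of the sustentacular-like bar.

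Krt8 in HBC-like cells did not sort with fewer basal transcripts. Cells with Krt8 had Krt5 in 81.3% (76.5 to 85.6%), Krt14 in 83% (78.3 to 87.1%) and Trp63 in 63.3% (57.6 to 68.8%) of 300. Cells without Krt8 had Krt5 in 78.6% (74.4 to 82.4%), Krt14 in 86.1% (82.5 to 89.3%) and Trp63 in 60.9% (56.1 to 65.6%) of 425. All 3 pairs of intervals overlapped. By the number of Krt5 UMIs, Krt8 was seen in 38.1% of cells with none, 46.3% with 1, 40.9% with 2 and 39.5% with 3 or more, again with overlapping intervals.

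Sustentacular transcripts were also present in these cells, and their part in the Krt8 values was not tested as a cause. All 9 preset sustentacular markers had at least 1 UMI in HBC-like cells and 7 of them reached 10 CPM, with a summed level of 8579 CPM against 52760 CPM in sustentacular-like cells. Cyp2g1, a cytochrome P450 of sustentacular cells, stood at 480 CPM in HBC-like cells and 14750 CPM in sustentacular-like cells. Most of the summed level in HBC-like cells thus came from the other markers. In cluster 27 the sum was 8171 CPM with Cyp2g1 at 102 CPM, so the sum does not follow Cyp2g1. Krt8 UMIs per Cyp2g1 UMI were 0.666 in HBC-like cells, against 0.0842 in sustentacular-like, 0.185 in mature OSN-like and 0.156 in B lineage-like cells. Of the HBC-like cells with Krt8, 17.7% (13.5 to 22.5%) had Cyp2g1, and of those without it 11.1% (8.24 to 14.4%). The mean was 1.12 Cyp2g1 UMIs per thinned cell with Krt8 and 0.257 without, but the intervals of these shares overlap. Sult1c1, another preset sustentacular marker, was seen in 4.0% (2.08 to 6.88%) of cells with Krt8 and 4.47% (2.71 to 6.89%) without, at means of 0.0833 and 0.106 UMIs. Sult1c1 is the scarcer marker, at 839.5 CPM in sustentacular-like cells. In cluster 1 it stood at 49.4 CPM and Cyp2g1 at 4115 CPM, so Sult1c1 can miss RNA of such cells. The median doublet score was 0.007995 in cells with Krt8 and 0.00768 in cells without it.

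GBC-like cells had Krt8 with few basal transcripts. Krt8 stood at 276 CPM and Krt18 at 402 CPM in the 478 cells, but Krt5, Krt14, Krt17 and Trp63 were each below 10 CPM. After thinning, 285 of 470 GBC-like cells (60.6%, 56.1 to 65.1%) had neither Krt5 or Krt14 nor Krt8 or Krt18, and 131 had Krt8 (27.9%). The GBC-like cells with Krt8 had Krt18 in 50.4% (41.5 to 59.2%) and Cyp2g1 in 30.5% (22.8 to 39.2%), and those without Krt8 had Krt18 in 15.04% (11.4 to 19.3%) and Cyp2g1 in 12.7% (9.33 to 16.7%). The mean was 1.69 Cyp2g1 UMIs with Krt8 and 0.404 without. The median doublet score was 0.0387 with Krt8 and 0.0132 without. Krt8 in this class thus moved with a sustentacular gene and with the doublet score, and what part either has in it was not tested.

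The number of combinations was counted in a few classes. All 7 genes together gave 92 different patterns of presence in 725 HBC-like cells, 9 in 876 sustentacular-like cells, 8 in 333 Bowman gland-like cells, 12 in 470 GBC-like cells, 10 in 875 cells of cluster 1 and 10 in 62 cells of cluster 27. The counts were not matched for the number of cells. The commonest HBC-like pattern was Krt5, Krt14, Krt17, Krt18 and Trp63, in 96 cells (13.2%, 10.9 to 15.9%), followed by the same genes with Krt8 in 77 cells (10.6%, 8.47 to 13.1%). In sustentacular-like cells Krt8 and Krt18 alone made up 770 cells (87.9%) and Krt18 alone 88 cells (10.0%), and in Bowman gland-like cells 234 (70.3%) and 55 cells (16.5%). At this depth a gene present at a few UMIs is missed in part of its cells, so the number of patterns is not a number of kinds of cell.

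HBC-like cells fell into 2 clusters that differed in Trp63 and Krt15. Cluster 7, 371 cells led by Car12, Nrcam and Igfbp2, had Trp63 at 837 CPM (779 to 898) in library 2 and 794 CPM (729 to 863) in library 1. Cluster 6, 413 cells led by Defb1, Abi3bp and Sfn, had it at 347 CPM (317 to 378) in library 2 and 338 CPM (303 to 376) in library 1. In both libraries cluster 7 was the higher, and no intervals overlapped between the clusters. Krt15 went the other way, at 46.9 CPM (33.9 to 63.1) in library 2 and 27.2 CPM (16.4 to 42.5) in library 1 in cluster 7, against 648 CPM (607 to 691) in library 2 and 578 CPM (532 to 626) in library 1 in cluster 6.

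The other basal keratins differed less. Krt5 was at 1215 CPM in library 2 and 1014 CPM in library 1 in cluster 7, against 764 CPM in library 2 and 744 CPM in library 1 in cluster 6, again higher in cluster 7 in each library. Krt14 was at 1166 CPM in library 2 and 1336 CPM in library 1 in cluster 7, against 1383 CPM in library 2 and 1940 CPM in library 1 in cluster 6. Krt17 was, over both libraries, at 2017 CPM in cluster 7 and 1707 CPM in cluster 6. Krt8, at 302 CPM (276 to 330) in cluster 7 and 330.5 CPM (308 to 354) in cluster 6, had overlapping intervals, and so had Krt18 at 774 CPM (732 to 818) and 841 CPM (806 to 878).

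Of the 7 genes, 1 was at least 2-fold higher in cluster 7 (Trp63, log2 ratio 1.25) and 1 at least 2-fold lower (Krt15, log2 ratio -3.98), where 11.2% of the 8008 genes compared were higher and 4.6% lower by that fold. The median log2 ratio over all these genes was 0.213 and over the 7 genes -0.12. The clusters come from the same expression table, so these are descriptions with no test. They were drawn without the 7 genes, which therefore did not make the border themselves. Cluster 7 had fewer UMIs per cell, with a median of 3114 against 4913 in cluster 6.

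At 2000 UMIs per cell the shares followed the levels. Trp63 was seen in 80.4% (75.7 to 84.6%) of 322 cells in cluster 7 and 47.1% (42.2 to 52.2%) of 403 cells in cluster 6. Krt15 was seen in 6.52% (4.08 to 9.80%) of cluster 7 and 37.2% (32.5 to 42.1%) of cluster 6, and Krt5 in 87.3% of cluster 7 and 73.7% of cluster 6. Krt8 was seen in 42.5% (37.1 to 48.1%) of cluster 7 and 40.4% (35.6 to 45.4%) of cluster 6, so the clusters did not differ in it beyond counting error.

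**Figure D3:**
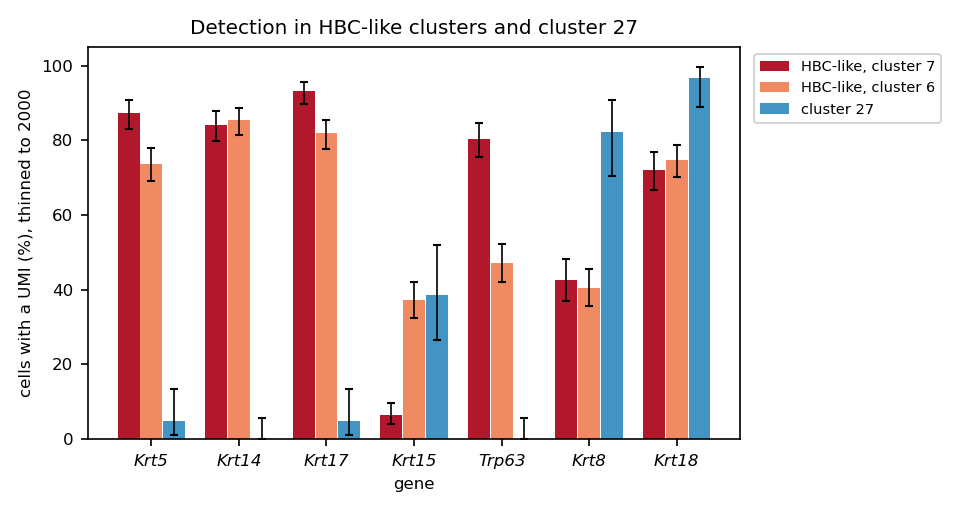
Share of cells, in percent, with at least 1 UMI of each of the 7 genes after thinning to 2000 UMIs, in clusters 7 and 6 of the HBC-like class and in unnamed cluster 27, with exact 95% binomial intervals. Trp63 is highest in cluster 7 (80.4%), lower in cluster 6 (47.1%) and at 0 in cluster 27, while Krt15 is at 6.52% in cluster 7, 37.2% in cluster 6 and 38.7% in cluster 27.

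Krt15 within cluster 6 was carried by a minority of cells. Its mean was 1.28 UMIs per thinned cell, and 78 of 403 cells with 3 or more UMIs, up to 14, held 80.7% of the Krt15 UMIs. In cluster 27, 13 cells held 84.2%. The cells of cluster 6 with and without Krt15 had similar shares of the genes given here, and most other genes were not compared in this way. Krt5 was seen in 72.0% (64.1 to 79.0%) of cells with Krt15 and 74.7% (68.9 to 79.9%) of cells without. Trp63 was seen in 46.7% of cells with Krt15 and 47.4% of cells without, and Krt8 in 44.7% (36.6 to 53.0%) and 37.9% (31.9 to 44.2%). Adh7, an alcohol dehydrogenase that was among the leading genes of the whole cluster, was seen in 71.3% of cells with Krt15 and 69.6% without. Over all HBC-like cells Krt15 was seen in 29.0% (23.7 to 34.7%) of cells with no Trp63 UMI, 27.96% with 1, 16.3% with 2 and 9.71% (4.76 to 17.1%) with 3 or more. Within each cluster the shares with and without Krt15 did not show that gradient. The Trp63 shares were close in cluster 6, as given above, and in cluster 7 Trp63 was seen in 21 of 21 cells with Krt15 (83.9 to 100%) and in 238 of 301 without (79.1%, 74.0 to 83.5%), a difference of the other sign.

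The genes around the keratins were read from preset lists, counted at a 4-fold difference between classes. HBC-like over sustentacular-like cells, 5 of the 7 genes were higher and none lower, where 8.17% of 9450 genes were higher and 5.7% lower. Their log2 ratios were 9.32 for Krt17, 8.81 for Krt14, 8.23 for Krt5, 8.12 for Krt15 and 7.83 for Trp63, after adding 1 CPM to both levels, which sets their size because these genes were near 0 in sustentacular-like cells. Of 12 genes of hemidesmosomes and basal anchoring, the structures to which keratins 5 and 14 attach at the basal lamina, 8 were higher and none lower, with a median log2 ratio of 3.49 against -0.0704 for all genes. They include Col17a1 (272 CPM against 0.401 CPM), Itgb4 (255 CPM against 6.28 CPM), Dst (472 CPM against 12.7 CPM) and Plec, the linker plectin (228 CPM against 43.7 CPM). Col17a1, Itgb4, Dst and Itga6 are among the markers that named the class, so the direction of 4 of the 12 was fixed by the naming.

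Of 15 genes compared among p63 partners and reported targets, 13 were higher and none lower (median log2 ratio 4.77), among them Jag2 (235 CPM against 3.34 CPM), Fgfr2 (116 CPM against 0.267 CPM) and Igfbp3 (119 CPM against 0.401 CPM). The list of 16 holds 6 of the markers that named the class. Desmosomal genes, whose proteins tie keratin filaments together between cells, were less divided. Of 10 compared, Pkp1, Pkp3 and Perp were higher and Pkp2 lower (11.5 CPM against 88.4 CPM), and Perp is among the markers that named the class. Among 11 genes that accompany keratins 8 and 18, Krt7 (140 CPM against 6.01 CPM) and Krt19 (477 CPM against 30.7 CPM) were higher, and the claudin genes Cldn3 (37.1 CPM against 476 CPM) and Cldn7 (114 CPM against 617 CPM) lower.

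HBC-like over GBC-like cells, the same 5 of the 7 genes were higher, where 9.81% of 9838 genes were higher and 7.38% lower. Of the anchoring list 11 of 12 were higher, of the p63 list 14 of 15, of the desmosome list 6 of 10, and of the simple-epithelium list 4 were higher and 2 lower of 11. Bowman gland-like over sustentacular-like cells, 3 of the 7 genes were abundant enough to compare (Krt8, Krt18 and Krt17), and none differed 4-fold, where 4.76% of 8904 genes were higher and 5.81% lower.

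Between the basal clusters, at a 2-fold difference, 4 of the 12 anchoring genes were higher in cluster 7 and none lower. These were Dst (771 CPM against 276 CPM in cluster 6), Col17a1 (403 CPM against 187 CPM), Lamb3 (461 CPM against 191 CPM) and Lama3 (60.01 CPM against 25.8 CPM), and Col17a1 and Lamb3 are also among the leading genes of cluster 7. Of 8 desmosomal genes 3 were higher in cluster 7, Dsc3 the most (283 CPM against 56.4 CPM), with Dsp and Pkp3. The p63 list split, with Notch1 (173 CPM against 56.8 CPM), Egfr, Dst and Col17a1 higher and Sfn (1047 CPM against 2528 CPM), Fgfr2 and Igfbp3 lower of 15. Of 10 simple-epithelium genes none was higher and 5 lower in cluster 7, namely Cldn4 (22.3 CPM against 357 CPM), Elf3 (65.6 CPM against 335 CPM), Cldn7, Krt19 (197 CPM against 660 CPM) and Krt7 (84.8 CPM against 175 CPM). Krt8 and Krt18 were thus not part of the simple-epithelium genes that were lower there.

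Between the libraries none of the 7 genes passed 1.5-fold in HBC-like cells, where 4.42% of 8008 genes were higher and 2.62% lower in library 2. The log2 ratios were -0.38 for Krt14, -0.36 for Krt17, -0.30 for Krt18, -0.02 for Krt8, 0.03 for Trp63, 0.14 for Krt5 and 0.24 for Krt15, about a class median of 0.0118. In sustentacular-like cells Krt8 (-0.24) and Krt18 (-0.33) were also within it (2.93% of 8492 genes higher and 1.81% lower), and likewise in cluster 1 (-0.25 and -0.27), where Krt17 at 8.02 CPM in library 2 and 13.3 CPM in library 1 was the 1 member past it (1.58% of 8537 genes higher and 1.87% lower).

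Bowman gland-like cells stood apart. Krt8 was at 974.8 CPM (943 to 1008) in library 2 and 1620 CPM (1563 to 1679) in library 1, a log2 ratio of -0.73. Krt18 was at 1829 CPM (1785 to 1874) in library 2 and 3048 CPM (2969 to 3129) in library 1, a log2 ratio of -0.74. Both were lower in library 2 by more than 1.5-fold, as was Krt17, where 3.11% of 7970 genes were higher and 8.54% lower. In this class the median over all genes was itself -0.164, and 71.9% of genes were below 0. The makeup of the class differed too, with 159 cells of cluster 11, 41 of cluster 29 and 19 of cluster 30 in library 2, against 115, 19 and 0 in library 1. Within cluster 11 alone Krt8 was at 1444 CPM in library 2 and 1938 CPM in library 1, and Krt18 at 2566 CPM in library 2 and 3524 CPM in library 1, both still lower in library 2 but by less than 1.5-fold.

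**Figure D4:**
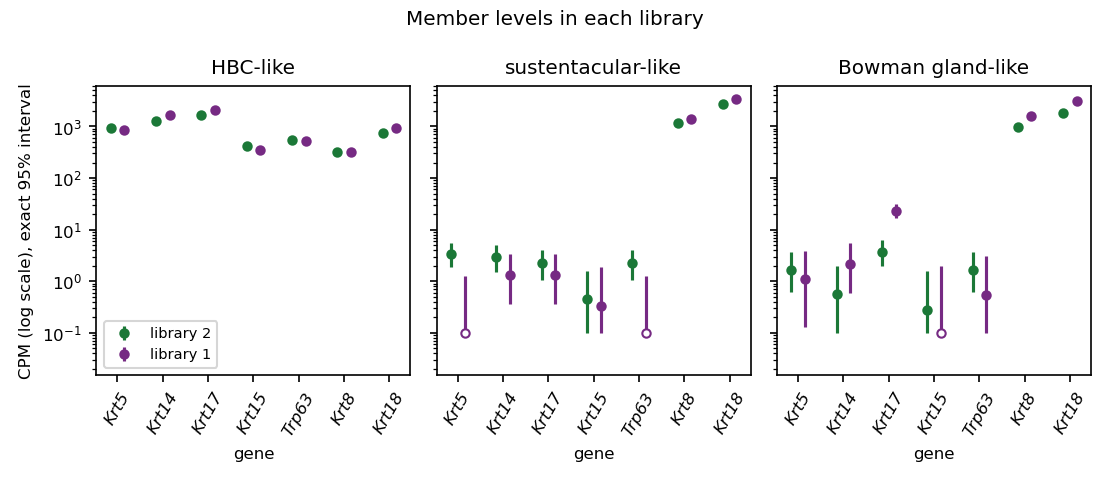
Level of each of the 7 genes in CPM (log axis) in library 2 (left of each pair) and library 1 (right), in HBC-like, sustentacular-like and Bowman gland-like cells, with exact 95% Poisson intervals, where a level of 0 is an open circle at 0.1 CPM and intervals are drawn no lower than that. Points of a pair lie within 1.5-fold in HBC-like cells, and Krt8 and Krt18 of Bowman gland-like cells are lower in library 2 (974.8 and 1829 CPM) than in library 1 (1620 and 3048 CPM).

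GBC-like cells had Krt8 at 234 CPM in library 2 and 373 CPM in library 1 (log2 ratio -0.67, past 1.5-fold) and Krt18 at 353 CPM in library 2 and 518 CPM in library 1 (-0.55), where 5.63% of 8592 genes were higher and 2.56% lower. Krt17 was also past the fold, at 7.60 CPM in library 2 and 14.5 CPM in library 1. Respiratory secretory-like cells had Krt15 at 65.3 CPM (103 UMIs) in library 2 and 31.1 CPM (23 UMIs) in library 1, past 1.5-fold, where 9.28% of 5332 genes were higher and 3.13% lower. In 3 classes taken to lack these keratins, with enough Krt8 UMIs to compare, the ratio had the other sign. Krt8 was at 14.6 CPM in library 2 and 6.11 CPM in library 1 in mature OSN-like cells (5.96% of 9021 genes higher and 3.72% lower), at 125 CPM in library 2 and 31.5 CPM in library 1 in neutrophil-like cells (17.2% of 2871 genes higher and 4.56% lower), and at 70.9 CPM in library 2 and 16.6 CPM in library 1 in B lineage-like cells (18.6% of 3110 genes higher and 5.31% lower). Krt17 in mature OSN-like cells was at 13.3 CPM in library 2 and 3.06 CPM in library 1. In immature OSN-like cells, where 2.98% of 9809 genes were higher and 4.42% lower, 4 of the 7 genes were past 1.5-fold higher at low levels. These were Trp63 (11.4 CPM in library 2 and 3.92 CPM in library 1, log2 ratio 1.33), Krt5 (16.7 CPM in library 2 and 7.85 CPM in library 1), Krt14 (10.4 CPM in library 2 and 5.49 CPM in library 1) and Krt17 (13.4 CPM in library 2 and 7.45 CPM in library 1). Krt18 was also past the fold, higher in library 2 in INP-like cells (67.8 CPM in library 2 and 44.6 CPM in library 1, with 6.08% of 5493 genes higher and 3.13% lower) and in cluster 17 (55.9 CPM in library 2 and 20.2 CPM in library 1, with 13.5% of 3639 genes higher and 11.3% lower). It was lower in fibroblast-like cells (70.3 CPM in library 2 and 124 CPM in library 1, with 8.41% of 2449 genes higher and 7.64% lower). Over the classes compared between libraries in which Krt8 was abundant enough, it was lower in library 2 in 8 of 12 and higher in 4. Krt18 was lower in 11 of 16 and higher in 5. Brush microvillous-like cells, cluster 27 and ciliated-like cells, with 27, 28 and 26 cells in library 1, were not among these classes. Their Krt8 was at 1866, 853 and 523 CPM in library 2 and 1527, 708 and 827 CPM in library 1.

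Across the 30 clusters with at least 30 cells, Pearson's r of log2(CPM + 1) described which genes had the pattern most like each of the 7, among 9664 genes. Krt8 and Krt18 were each other's nearest (r = 0.986), followed by Krt23 (0.959) for Krt8 and Aqp5 (0.973) for Krt18. Krt5 and Krt17 were each other's nearest (0.919), Krt14 was nearest to Col17a1 (0.928), and Trp63 to Krt5 (0.88) and Dlk2 (0.874). Krt15 was nearest to Adh7 (0.877), Anxa8 (0.874) and Kcnj16 (0.873). With the basal genes it had r = 0.637 for Krt14, 0.61 for Trp63, 0.583 for Krt17 and 0.573 for Krt5. Krt5 and Krt8 had r = 0.335. The clusters share libraries and depth differences, so these are descriptions without a p-value.

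Of the 47 other keratin features, 6 reached 50 CPM in a cluster, 41 did not, and 10 had no UMI in any kept cell. Krt19 was at 477 CPM in HBC-like cells and 30.7 CPM in sustentacular-like cells, Krt23 at 279 CPM in Bowman gland-like cells and 154 CPM in sustentacular-like cells, and Krt7 at 140 CPM in HBC-like cells and 239 CPM in ciliated-like cells. Krt83 (111 CPM in T/NK-like cells), Krt72 (58.4 CPM in mature OSN-like cells) and Krt10 (70.8 CPM in INP-like cells, the intermediate neuronal precursors) lay outside the epithelium's basal and supporting cells. Of the 7 genes Krt8 has the closest copy, the pseudogene Krt8-ps, which shares 26.9% of its 50-base stretches but none in its last 500 bases, and an antisense gene over Krt8 had 12 UMIs against 33087 for Krt8.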

How the data were processed

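The deposited matrix held whole-number counts of UMIs per gene and cell barcode. Per the submitters' processing notes the authors used Cell Ranger 3.0.2 on mm10, and no source here says how the libraries were scaled when joined. Cells under 1000 UMIs, under 500 genes or over 10% mitochondrial UMIs were dropped, which removed 2724 barcodes of library 2 and 1469 of library 1. Scrublet called 7 of 8298 cells (0.0844%), fewer than the 0.5% a working caller should reach, and no doublet was removed. Counts per cell were scaled to 10000 and log-transformed, and 2000 variable genes, leaving out odorant receptor, mitochondrial, Xist and keratin genes and Trp63, gave 30 principal components. A 15-neighbour graph was clustered with the Leiden method (resolution 1.0, seed 0). Clusters were named by the class whose preset markers were most frequent, and 3 or more, in their 50 leading genes, and stayed unnamed where another class led its top 10 or its depth was low.

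Levels are CPM of summed UMIs with exact Poisson intervals, and shares of cells have exact Clopper-Pearson intervals after 1 random draw of 2000 UMIs per cell. Log2 ratios add 1 CPM. Genes with at least 50 UMIs and 10 CPM were compared, at 1.5-fold between libraries, 4-fold between classes and 2-fold between clusters 7 and 6. The steps were tested on simulated data. Named genes are the 7 members, keratins at 50 CPM or more in a cluster of at least 30 cells (at most 12), the anchoring, desmosome, p63 and simple-epithelium lists, and the 5 genes most like each member. A leading gene or a control for sustentacular RNA (Cyp2g1) was named outside this rule, after its values had been seen. A gene of the p63 list is not reported by name here. Members and lists were chosen with earlier results of these data known. Clustering used scanpy 1.11.5, leidenalg 0.10.2 with igraph 0.11.9, and scikit-learn 1.9.0, intervals used scipy 1.17.1, and tables and figures used pandas 2.3.3, numpy 2.4.6 and matplotlib 3.10.9 under Python 3.11.15. Alternatives were other cell filters, doublet removal, clustering with the 7 genes, resolution 2.0, each library alone, another detection threshold, other depths, and other scaling and pseudocounts.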

Additional observations from a re-analysis of the deposited data

How the results depend on the processing

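All 7 genes are described from 1 library per side, so the values carry counting error but no error between animals or preparations. No paired analysis was possible because each side has 1 library, the barcode endings are not tied to sides and no test was run. Of 77 recomputed main values 54 moved by less than their counting interval and 23 by more, and of 63 levels of single genes 29 and 34. None changed sign. At a limit of 5% mitochondrial UMIs the highest Krt15 level over the named classes was 761.6 CPM (390.0 as reported, in HBC-like cells). An unnamed cluster described above had more Krt15 than those 390.0 CPM. The highest Krt8 level was 688 CPM at this limit, against 1735 CPM as reported in brush microvillous-like cells. No cluster had that name at this limit, so these Krt8 values belong to different classes. The 688 CPM was also below the reported 1242 CPM of sustentacular-like cells, a class named in both settings. For Krt18 the highest level was 1696 CPM (2964 as reported), and Krt15 was at 236 CPM at Leiden resolution 2.0. Over all 9 alternatives Krt5 ran from 748 to 961 CPM, Krt14 from 1300 to 1694, Krt17 from 1638 to 2096 and Trp63 from 388 to 581.

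HBC-like cells with Krt5 and Krt14 made up 68.8% as reported, 63.8% at a limit of 5% mitochondrial UMIs, 37.8% with 2 UMIs asked of each gene, 83.7% without thinning and 81.8% at 4000 UMIs. With Krt5 and Krt8 the share was 33.7% as reported, 5.79% at 2 UMIs, 56.2% without thinning and 49.9% at 4000 UMIs. Sustentacular-like cells with Krt8 and Krt18 made up 88.8% as reported, 63.6% at 5% mitochondrial UMIs, 91.1% when keratin genes and Trp63 entered the clustering, 85.8% in library 2 alone, 92.6% in library 1 alone, 66.8% at 2 UMIs, 97.5% without thinning and 98.6% at 4000 UMIs. For gland-like cells the share was 72.4% as reported, 40.4% with no filter on cells, 50% at 5% mitochondrial UMIs, 78.3% in library 1 alone, 60.4% at 2 UMIs, 92.1% without thinning and 79.8% at 4000 UMIs. The log2 ratio of Krt8 in sustentacular-like cells was -0.24 as reported, -0.32 at 2500 UMIs or more, -0.38 at 5% mitochondrial UMIs and -0.32 with keratin genes and Trp63 in the clustering. The limit of 5% mitochondrial UMIs left 195 HBC-like, 108 sustentacular-like and 85 gland-like cells, against 784, 921 and 353 as reported. The cause of the lower Krt8 and Krt18 levels and the higher Krt15 level at this limit was not tested. Leaving out barcodes seen in both libraries, an alternative added after seeing the data, moved none of these values beyond its interval.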
